A study of Mus musculus with 6 samples.

Results

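Immediate early genes are transcribed within minutes of a stimulus without prior protein synthesis, and heat shock genes are transcribed when proteins unfold. Among the measured genes, 39 of 20649 belong to these programs, and all 39 listed members were found in the count matrix. They were listed by name, without a threshold on their values, by a choice made with earlier results of these data known, and fall into 7 AP-1 subunits (Fos, Fosb, Fosl1, Fosl2, Jun, Junb and Jund), 11 other transcription factors (Egr1, Egr2, Egr3, Atf3, Atf4, Nr4a1, Nr4a2, Nr4a3, Klf2, Klf6 and Myc), 13 feedback regulators of signaling and mRNA (Ier2, Ier3, Ier5, Dusp1, Dusp2, Dusp5, Zfp36, Btg2, Nfkbia, Nfkbiz, Tnfaip3, Gadd45b and Ppp1r15a) and 8 heat shock genes (Hspa1a, Hspa1b, Hspa8, Hsp90aa1, Hsp90ab1, Dnajb1, Hsph1 and Hspe1). The question was which members were used by particular cell types and which were at a like level in every cell type, as would be looked for if tissue digestion acted on all cells. No undigested tissue was measured, and the part of digestion in any level was not tested.

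The cells came from subcutaneous tumors of CT26, a colon carcinoma line of the mouse, in female BALB/c mice. The labels list 3 tumors given exoASO-STAT6, exosomes loaded with an antisense oligonucleotide against Stat6, and 3 given exoASO-Scramble, exosomes loaded with a scrambled control. All tumors received 3 injections into the tumor on alternate days and were collected 24 hours after the last one. Each was digested with a tumor dissociation kit, enriched for CD45+ cells by magnetic selection, and profiled with a 10x Genomics 3′ chemistry that counts unique molecular identifiers (UMIs). The deposited matrix holds 9235 barcodes that end in a suffix from 3 to 8, and no label pairs a suffix with a tumor. The suffixes are therefore treated as 6 libraries of unknown treatment within 1 pooled sample, the 2 treatments were not compared, and no p-value is given.

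Total UMIs per suffix ranged from 11492757 in suffix 3, which held 867 barcodes, to 33902084 in suffix 8, with a median of 11846 UMIs per barcode over the series. The 39 members accounted for 2882483 UMIs, 2.05% of all. Only 16 barcode sequences occurred in more than 1 suffix. Levels below are summed UMIs of a gene per 10,000 summed UMIs of the barcodes in a group. With 3′ chemistry 1 end is counted per transcript, so levels were not divided by gene length. Intervals cover counting error only.

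In the immediate early program, kinases such as ERK and p38 activate factors already bound at the promoters, including SRF at the CArG box and CREB at the cAMP response element. The products are transcription factors that form the second wave of the response and regulators that end it, such as phosphatases that remove phosphate from the kinases, Zfp36 that destabilizes cytokine mRNA, and Nfkbia that holds NF-κB in the cytoplasm. In the heat shock response HSF1 binds heat shock elements and induces chaperones, above all the inducible Hsp70 genes Hspa1a and Hspa1b. In macrophages these genes follow contact with microbial products, cytokines and growth factors, and enzymatic dissociation of tissue is a known inducer of them in many cell types.

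To show the promoter elements that these 2 inputs use, the 150 bases before the RefSeq transcription start (build GRCm38.p6) were taken for 5 members. They are printed 5′ to 3′ on the gene's strand, with a matched motif in capitals. Hspa1a lies at chr17:34972157-34972306 and Hspa1b at chr17:34959239-34959388, both on the minus strand, and the capitals mark GAANNTTC, a pair of inverted heat shock units, from position -104 to -97. Dusp1 lies at chr17:26508473-26508622 on the minus strand, with the cAMP response element TGACGTCA from -143 to -136. Zfp36 at chr7:28379229-28379378, minus strand, carries a CArG box from -58 to -49. The printed Egr2 stretch, from 1 of 5 annotated starts, lies at chr10:67537719-67537868, plus strand, with a CArG box from -72 to -63. Stretches before other annotated starts of Egr2 carry a CArG box as well.
Hspa1a: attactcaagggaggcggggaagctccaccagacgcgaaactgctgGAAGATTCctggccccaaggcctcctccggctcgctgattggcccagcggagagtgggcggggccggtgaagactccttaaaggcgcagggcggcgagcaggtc
Hspa1b: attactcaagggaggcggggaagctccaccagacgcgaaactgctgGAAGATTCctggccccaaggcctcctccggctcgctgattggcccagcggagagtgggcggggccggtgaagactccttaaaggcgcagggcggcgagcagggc
Dusp1: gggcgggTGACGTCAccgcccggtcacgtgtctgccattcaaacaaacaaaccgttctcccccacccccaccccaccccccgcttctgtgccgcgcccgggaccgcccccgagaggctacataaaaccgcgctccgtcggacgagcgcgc
Zfp36: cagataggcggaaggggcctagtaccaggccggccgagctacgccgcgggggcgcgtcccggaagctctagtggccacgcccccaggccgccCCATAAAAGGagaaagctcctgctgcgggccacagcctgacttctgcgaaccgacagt
Egr2: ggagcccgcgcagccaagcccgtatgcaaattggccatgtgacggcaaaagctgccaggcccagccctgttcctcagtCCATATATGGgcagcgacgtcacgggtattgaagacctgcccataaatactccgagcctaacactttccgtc
The Hspa1a and Hspa1b stretches were identical at 149 of 150 bases, and their whole windows of 250 bases before to 50 after the start at 296 of 300. Of 39 members, 30 matched a RefSeq promoter, with 37 windows. Both strands were searched. GAANNTTC was found in the windows of 6 members (Fosl2, Hspa1a, Hspa1b, Hspe1, Hsph1 and Jun) and in 7.86% of all 32851 windows. A longer element of 3 heat shock units was found in Hspe1 and Hsph1 and in 0.603% of windows, and it contains GAANNTTC. The cAMP response element was found in Btg2, Dusp1 and Ppp1r15a (1.79% of windows), the AP-1 site TGANTCA in Tnfaip3 (7.81%) and the CArG box in Dusp5, Egr2 and Zfp36 (1.63%). A match describes the letters of the window and does not show binding.

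Barcodes were assigned to 7 groups by UMIs of marker genes, none of which is a member. The macrophage gate (at least 3 UMIs of Csf1r and Adgre1) held 6285 barcodes, the neutrophil gate (at least 5 of S100a9) 1049, the dendritic gate (at least 1 of Flt3) 344 and the B cell gate (at least 2 of Cd79a) 82. The CD8 T gate held 204, the Foxp3 T gate 55 and the NK gate 302, all with at most 1 UMI of Csf1r and Adgre1. The macrophage markers Lyz2, C1qa and Apoe stood at 55.7, 27.4 and 19.0 in the macrophage gate. Among markers that no gate used, Trac stood at 6.62 in CD8 T, Ikzf2 at 16.4 in Foxp3 T and Gzma at 99.8 in NK cells. The neutrophil, dendritic and B cell gates overlap the macrophage gate, in 86.6%, 53.8% and 50% of their barcodes, and their Lyz2 level was 48.5, 32.9 and 37.3. For these 3 gates, values are therefore also given for barcodes that passed 1 gate only: 5191 macrophage, 126 neutrophil, 149 dendritic and 38 B cell barcodes, in which Lyz2 was at 58.0, 26.1, 8.57 and 2.68. Lyz2 UMIs were also found in CD8 T (4.76% of the macrophage level) and NK cells (5.18%). In NK cells of suffix 5, 23 barcodes, Lyz2 was at 44.6%, C1qa at 32.7% and Apoe at 40.7% of the macrophage level of that suffix.

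Macrophages held the immediate early transcripts at a higher summed level than lymphocytes did, whereas the summed heat shock transcripts differed less. The 31 immediate early members summed to 170.1 UMIs per 10,000 in macrophages, against 79.3 in CD8 T, 93.1 in NK and 127 in Foxp3 T cells. In macrophages the sum was 169.7, 161.5, 189.5, 196.3, 148.8 and 171.4 in suffixes 3 to 8. In CD8 T cells it was 72.5, 89.0, 90.3, 81.1 and 57.9 in suffixes 3, 4, 6, 7 and 8, while suffix 5 held 1 such barcode. The macrophage and CD8 T values did not overlap. In NK cells the sum was 81.9, 63.3, 113, 94.2 and 116 in the same suffixes and 145 in suffix 5, where it came close to the lowest macrophage value. Per barcode, the median sum was 179 in macrophages, with 56.1 and 344 at the 10th and 90th percentiles. It was 71.2 in CD8 T, 86.2 in NK and 120 in Foxp3 T cells, the last with a 90th percentile of 268.

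The 8 heat shock members summed to 33.9 in macrophages, 31.9 in neutrophil-gated, 32.5 in dendritic-gated, 37.4 in NK and 45.3 in CD8 T barcodes. Across suffixes 3 to 8 the macrophage sum was 42.0, 33.1, 31.2, 33.1, 33.1 and 34.2, so that suffix 3 stood above the others. CD8 T cells were above macrophages in each of their 5 suffixes, with 66.5, 48.3, 41.1, 39.1 and 50.2. NK cells lay above macrophages in 5 of 6 suffixes, with 44.2, 36.8, 37.5, 34.8 and 38.7, and below in suffix 5, with 25.7.

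**Figure D1:**
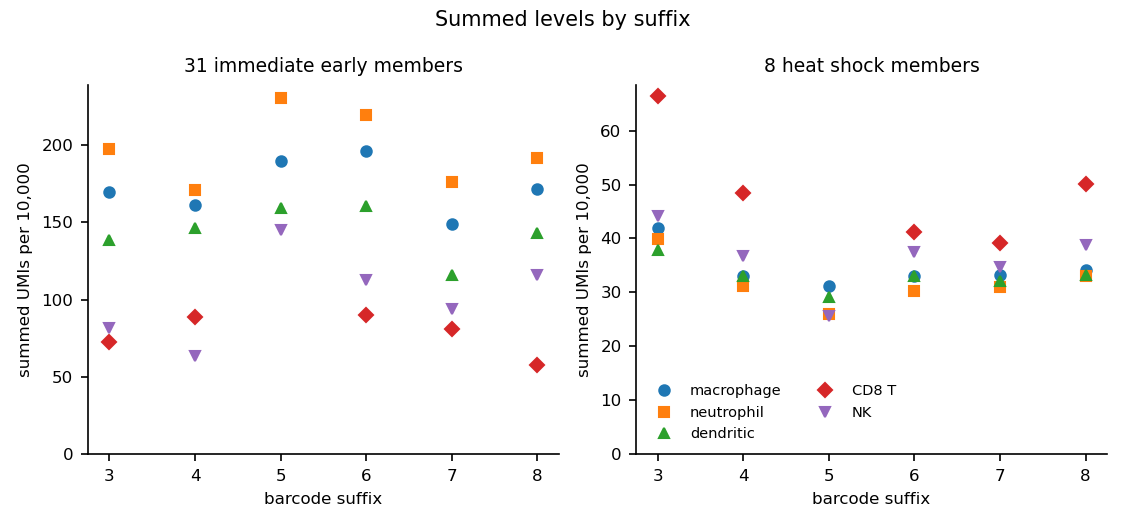
Summed level (UMIs per 10,000, linear axis from 0) of the 31 immediate early members (left) and the 8 heat shock members (right) by barcode suffix, with 1 symbol per gate; CD8 T cells have no point in suffix 5, where they held 1 barcode. Immediate early sums of macrophages (148.8 to 196.3) lie above those of CD8 T cells (57.9 to 90.3), and the heat shock sums of CD8 T cells (39.1 to 66.5) lie above those of macrophages (31.2 to 42.0) within each suffix, although the ranges overlap.

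A member was called higher or lower in a gate when its summed level differed at least 2-fold from the macrophage level and lay on the same side in every suffix with at least 10 barcodes of both gates. Genes with a mean level of at least 0.1 were compared, which left 38 members and removed Fosl1 (0.0198 to 0.0704 over the gates). The same rule over all genes compared gives the background. In CD8 T cells 16 of 38 members were lower and 1 was higher, where the rule called 29.2% of 7903 genes, 17.4% lower and 11.8% higher. In NK cells 12 were lower and 0 higher, where it called 23.1% of 7800 genes, 15.4% lower and 7.64% higher. In Foxp3 T cells, compared in suffixes 4, 5 and 6 alone, 10 were lower and 1 was higher, where it called 21.9% of 7952 genes, 11.9% lower and 9.96% higher. The median ratio of the members to macrophages was 0.554 in CD8 T, 0.699 in NK and 0.958 in Foxp3 T cells, and over all genes it was 1.07, 1.003 and 1.13. By role, the lower members in CD8 T cells were 3 of 6 AP-1 subunits, 6 of 11 other factors, 6 of 13 feedback regulators and 1 of 8 heat shock genes. In NK cells they were 2, 5, 5 and 0, and in Foxp3 T cells 2, 5, 3 and 0. In bulk sums of this kind, fewer transcribing cells and fewer transcripts per cell cannot be told apart, which is why shares of barcodes are given further on.

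**Figure D2:**
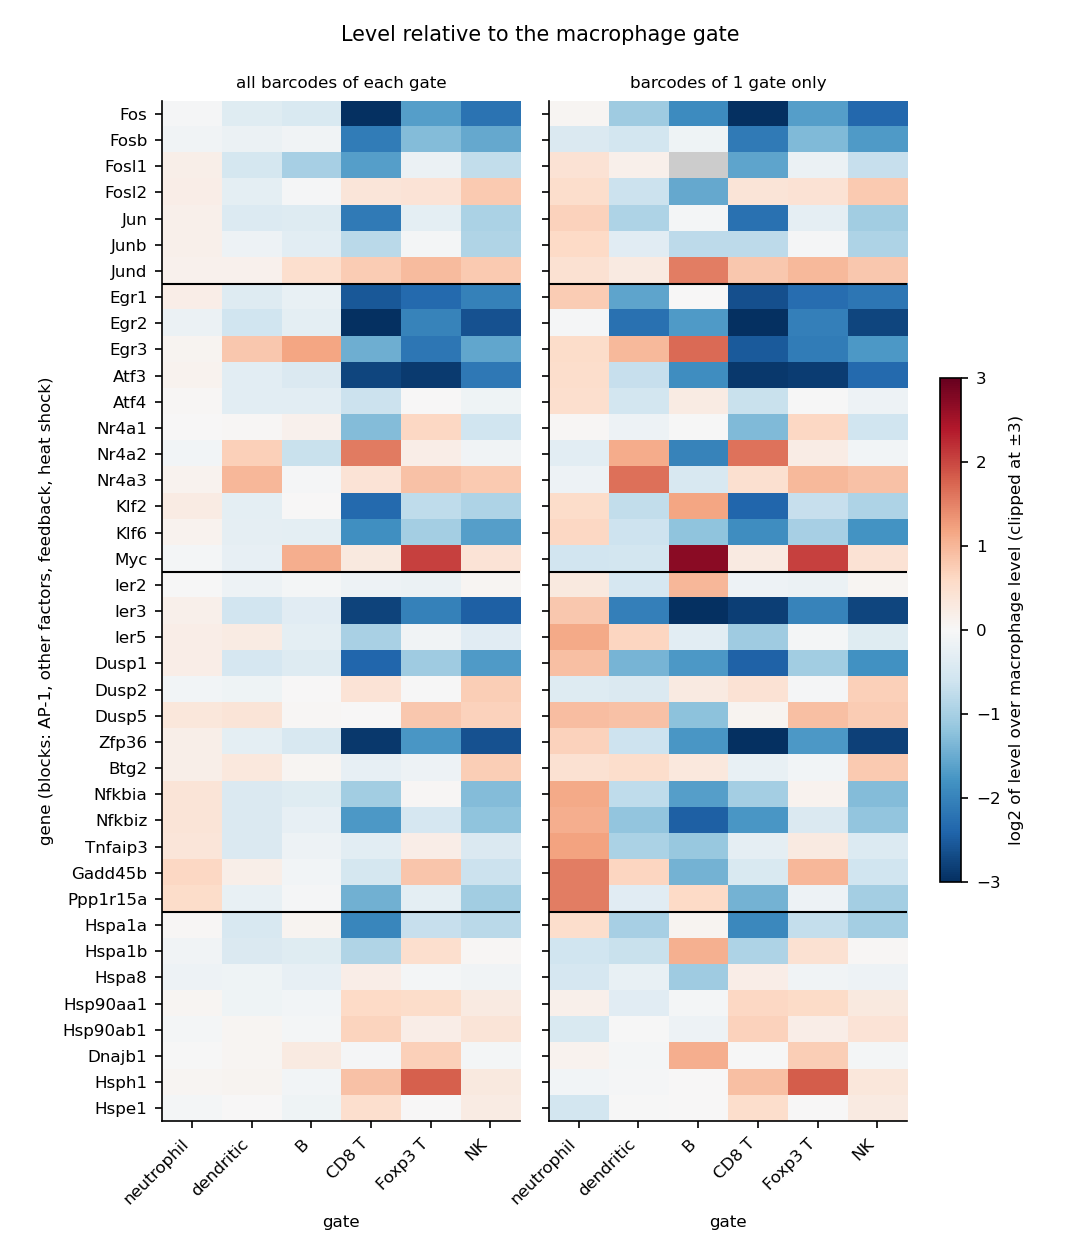
Log2 of the level in each gate over the macrophage level (colour scale, clipped at 3 in either direction, so that deeper values are drawn as 3), with members as lines in 4 blocks by role; the left panel holds all barcodes of a gate and the right panel barcodes of 1 gate only, with grey for a level of 0. Blue runs through Fos, Egr1, Egr2, Atf3, Ier3, Dusp1 and Zfp36 in the CD8 T, Foxp3 T and NK columns, and in the heat shock block the deepest colours are Hspa1a in CD8 T cells (-1.96) and Hsph1 in Foxp3 T cells (1.798).

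The lymphoid gates shared 9 lower members: Fos, Fosb, Egr1, Egr2, Atf3, Klf6, Ier3, Dusp1 and Zfp36 were lower in CD8 T, Foxp3 T and NK cells alike. They were 9 of the 38 members compared in each of these gates, where 8.67% of 7392 genes were lower in all 3. These comparisons share the macrophage barcodes. In Foxp3 T cells the calls of Fosb, Klf6 and Dusp1 were lost without suffix 4, that of Klf6 also without suffix 6 or 7 and that of Dusp1 without suffix 6.

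The Fos and Jun families form AP-1, a dimeric transcription factor. Fos, the subunit that must pair with a Jun protein, was at 13.8, 15.7, 19.5, 15.4, 12.2 and 14.8 in macrophages of suffixes 3 to 8. In CD8 T cells it was at 0.308, 3.66, 1.98, 1.75 and 0.167 in suffixes 3, 4, 6, 7 and 8. In NK cells it was at 1.28, 1.18, 6.66, 5.86, 2.75 and 4.73 in suffixes 3 to 8. Every macrophage value lay above all CD8 T and NK values. Over all barcodes Fos was 8.67-fold lower in CD8 T and 4.62-fold lower in NK cells than in macrophages (14.99). Fosb, a close relative, was 4.29-fold lower in CD8 T (0.760) and 2.90-fold lower in NK cells (1.12) than in macrophages (3.26). Jun, the subunit that gave the family its name, was 4.36-fold lower in CD8 T cells (0.688 against 3.00), while its NK level of 1.55 missed 2-fold. Junb, which often restrains Jun, was the most abundant AP-1 member over all macrophage barcodes, at 18.4. It stood at 10.6 in CD8 T, 9.89 in NK and 17.6 in Foxp3 T cells.

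Jund and Fosl2 went the other way, without reaching 2-fold. Jund, the subunit present in resting cells, was at 6.57 in macrophages (5.73 to 7.70 over suffixes), 11.2 in CD8 T (10.1 to 11.7 over 5 suffixes), 11.3 in NK (8.70 to 15.9) and 12.6 in Foxp3 T cells. The CD8 T and NK values lay above every macrophage suffix. Fosl2, a longer-lived Fos relative, was at 2.12 in macrophages, 2.70 in CD8 T, 2.82 in Foxp3 T and 3.62 in NK cells.

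Of the Egr zinc finger factors, classical targets of SRF, Egr1 and Egr2 were lower in all 3 lymphoid gates, and Egr3 differed in direction between gates. Egr1 was at 8.55, 7.75, 9.84, 7.600, 6.59 and 8.08 in macrophages of suffixes 3 to 8. In CD8 T cells it was at 1.23, 1.46, 1.11, 1.68 and 0.6252 in suffixes 3, 4, 6, 7 and 8, and in NK cells at 1.02, 0.952, 5.04, 1.64, 2.45 and 3.20 in suffixes 3 to 8. Every macrophage value lay above all CD8 T and NK values, with Egr1 5.83-fold lower in CD8 T and 4.10-fold lower in NK cells. Egr2, whose promoter with its CArG box is printed above, was at 1.55 in macrophages and 15.6-fold lower in CD8 T (0.0989) and 6.07-fold lower in NK cells (0.255). Egr3 was low throughout, at 0.499 in macrophages, 0.182 in CD8 T and 0.169 in NK cells. It was 4.52-fold lower in Foxp3 T cells, on few UMIs in 55 barcodes, so the size of that ratio is uncertain. Egr3 was 2.96-fold lower in NK cells and not called in CD8 T cells, where suffix 6 (0.645) lay above macrophages. In the dendritic gate it was at 0.877, above macrophages in 6 of 6 suffixes but under 2-fold, and in the B cell gate at 1.14, above them in 4 of 4.

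Atf3, a stress-induced repressor of inflammatory genes, was at 3.41 in macrophages and was 6.78-fold lower in CD8 T and 4.39-fold lower in NK cells. Atf4, the translationally controlled factor of the integrated stress response, was close to even, at 1.32 in macrophages, 0.851 in CD8 T, 1.33 in Foxp3 T and 1.22 in NK cells. Klf6, a zinc finger factor induced on activation, was at 10.1 in macrophages (8.63 to 13.0 over suffixes), 2.81 in CD8 T and 3.21 in NK cells. Klf2, which keeps lymphocytes quiescent and in circulation, was at 4.47 in macrophages and 5.07-fold lower in CD8 T cells (0.882). In NK cells Klf2 ranged from 0.353 in suffix 4 to 6.58 in suffix 5, overlapping the macrophage range of 3.11 to 5.27.

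The orphan nuclear receptors Nr4a1, Nr4a2 and Nr4a3, which are induced by antigen receptor signaling, differed from each other in direction. Nr4a2 was the single member called higher in CD8 T cells. It was at 5.44, 4.73, 5.38, 5.89 and 4.44 there in suffixes 3, 4, 6, 7 and 8, against 1.59, 2.28, 1.35, 1.87 and 1.42 in macrophages of the same suffixes. The values did not overlap, and the ratio was 2.96. Nr4a1 was instead 2.46-fold lower in CD8 T cells, at 1.23 against 3.02, and stood at 4.64 in Foxp3 T and 2.001 in NK cells. Nr4a3 was at 0.807 in macrophages, 1.07 in CD8 T, 1.38 in NK and 1.49 in Foxp3 T cells. Myc, which drives growth of activated lymphocytes, was the single member called higher in Foxp3 T cells, at 1.10 against 0.266. That rests on 40 UMIs, of which 4, 1 and 18 came from suffixes 4, 5 and 6, so its size is uncertain.

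The feedback regulators made up 86.6 of the 170.1 immediate early UMIs per 10,000 in macrophages, and 5 to 6 of the 13 were lower in NK and CD8 T cells. Zfp36 (tristetraprolin) was at 11.8, 10.4, 15.9, 16.1, 11.0 and 11.6 in macrophages of suffixes 3 to 8. It was at 1.33, 1.71, 1.78, 2.19 and 0.375 in CD8 T cells of suffixes 3, 4, 6, 7 and 8. In NK cells it was at 1.91, 0.693, 6.58, 1.72, 1.09 and 4.01 in suffixes 3 to 8. Zfp36 was thus 7.44-fold lower in CD8 T and 6.12-fold lower in NK cells, and neither gate overlapped macrophages. Dusp1, a phosphatase that inactivates p38 and JNK, was at 13.8, 13.7, 18.7, 19.3, 12.7 and 14.9 in macrophages of suffixes 3 to 8. In CD8 T cells it was at 2.62, 3.20, 3.76, 3.31 and 0.959, and in NK cells at 4.08, 2.33, 8.37, 6.97, 3.34 and 6.59. Dusp1 was 5.23-fold lower in CD8 T and 3.24-fold lower in NK cells, again without overlap with macrophages. Ier3, which modulates survival and NF-κB signaling, was 6.86-fold lower in CD8 T (1.38) and 5.47-fold lower in NK cells (1.74) than in macrophages (9.50).

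Among the inhibitors of NF-κB, Nfkbia was the most abundant member in macrophages over all barcodes (19.1), with 20.2, 17.9, 13.6, 22.1, 17.3 and 22.0 in suffixes 3 to 8. It was 2.06-fold lower in CD8 T cells (9.29), a call lost without suffix 8, 2.45-fold lower in NK cells (7.80), and level with macrophages in Foxp3 T cells (19.6 against 19.1). Nfkbiz, an atypical IκB that acts in the nucleus, was 3.30-fold lower in CD8 T (1.82) and 2.32-fold lower in NK cells (2.58) than in macrophages (5.99). The NK call was lost without suffix 4. Tnfaip3 (A20), the deubiquitinase that ends NF-κB signaling, was at 3.94 in macrophages, 3.18 in CD8 T and 2.90 in NK cells, with no call. Ppp1r15a (GADD34), which restores translation after stress, was 2.74-fold lower in CD8 T cells at 0.740 and stood at 0.985 in NK cells, against 2.02 in macrophages.

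None of the remaining regulators was called in CD8 T, NK or Foxp3 T cells. Ier2 was at 2.40 in macrophages and between 2.13 and 2.51 in the lymphoid gates. Btg2, an antiproliferative cofactor of deadenylation, was at 6.17 in macrophages (5.65 to 7.87) and at 10.2 in NK cells (8.24 to 14.2), with NK above every macrophage suffix but under 2-fold. Dusp2 and Dusp5, nuclear phosphatases of ERK, were at 2.20 and 2.76 in macrophages and at 3.66 and 4.48 in NK cells. Ier5 lay below macrophages in each of the 5 suffixes of CD8 T cells, at 1.21 against 2.39, a ratio of 0.506 that just missed 2-fold. Gadd45b was at 2.62 in macrophages, 1.81 in CD8 T, 1.68 in NK and 4.64 in Foxp3 T cells.

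**Figure D3:**
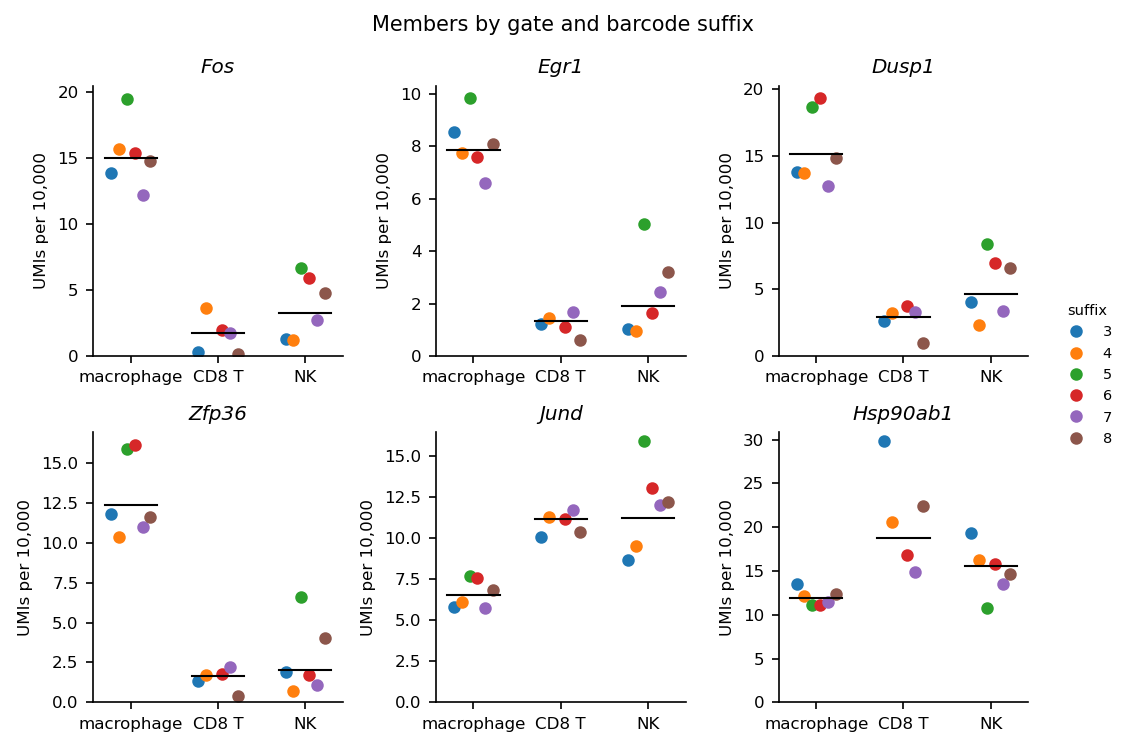
Level (UMIs per 10,000, linear axes from 0) of 6 members in macrophages, CD8 T and NK cells, with 1 coloured point per barcode suffix of at least 10 barcodes and a line at the level over all barcodes. Fos, Egr1, Dusp1 and Zfp36 points of macrophages lie above all those of CD8 T and NK cells, Jund points lie below them, and Hsp90ab1 reaches 29.8 in CD8 T cells of suffix 3.

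The difference was also seen in the share of barcodes with a UMI. All barcodes were reduced at random to 3000 UMIs, at the loss of 47 macrophage, 12 CD8 T and 47 NK barcodes. A Fos UMI was then found in 85.9% of 6238 macrophages (exact binomial interval 84.99% to 86.7%), in 21.4% of 192 CD8 T (15.8% to 27.8%) and in 29.4% of 255 NK cells (23.9% to 35.4%). Without thinning the shares were 96.1%, 37.7% and 38.7%, at median depths of 15728, 10054.5 and 6589 UMIs. Lyz2 and C1qa, which lymphocytes should lack, gave 35.4% and 14.1% in thinned CD8 T and 34.9% and 17.6% in thinned NK cells. The lymphoid shares of Fos lay between those of these macrophage transcripts, which differ from Fos in their macrophage level, so a low share does not show expression by the lymphocytes. Zfp36 shares of 22.9% in CD8 T and 22.4% in NK cells, against 86.9% in macrophages, lay in the same range. Nr4a2 was found in 64.6% of CD8 T (57.4% to 71.3%), 29.9% of macrophages and 31.8% of NK cells. Hspa8 was found in 95.5%, 97.9% and 95.3% of macrophages, CD8 T and NK cells.

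Relative to the macrophage level of each gene, Fos stood at 11.5% in CD8 T and 21.7% in NK cells, Egr1 at 17.2% and 24.4%, Zfp36 at 13.4% and 16.3% and Dusp1 at 19.1% and 30.9%. Lyz2 stood at 4.76% and 5.18% and C1qa at 3.28% and 4.26%, below each of these 4 members over all barcodes. In suffix 8, Fos in CD8 T cells was at 1.13% and Lyz2 at 0.862%. How much of each lymphoid level was RNA from macrophages was not tested.

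The other myeloid gates were nearly indistinguishable from macrophages as ruled. More members, like more of all genes, were called once shared barcodes were removed. As ruled, 0 of 38 members were called in the neutrophil gate, where 0.524% of genes were, all of them higher, and 1 in the dendritic gate, where 3.64% were, 3.32% higher and 0.32% lower. The 1 was Nr4a3, at 1.62 against 0.807, a ratio that fell under 2-fold without any 1 of suffixes 5 to 8. In neutrophil barcodes of 1 gate only, compared in suffixes 6, 7 and 8, 6 of 38 members were higher and 0 lower, where the rule called 8.93% of genes, 3.64% higher and 5.29% lower. All 6 were feedback regulators. Nfkbia was at 39.5 against 18.1, Nfkbiz at 12.0 against 5.64, Tnfaip3 at 8.74 against 3.76, Gadd45b at 6.78 against 2.32, Ppp1r15a at 5.30 against 1.84 and Ier5 at 5.14 against 2.33. The 31 immediate early members summed to 270.6 in these neutrophils and to 166.3 in macrophages of 1 gate only. Fos was about level, at 15.9 against 15.2. These barcodes still held Lyz2 at 26.1 and C1qa at 6.91.

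In dendritic barcodes of 1 gate only, 6 of 38 members were lower and 2 higher. The rule called 17% of genes there, 10.1% lower and 6.9% higher, so these counts lay near the background. Fos was at 7.25 against 15.2, Egr1 at 2.56 against 7.67 and Egr2 at 0.338 against 1.61. Ier3 was at 2.27 against 9.38, Dusp1 at 5.66 against 14.9 and Nfkbiz at 2.47 against 5.64. The higher members were both nuclear receptors, Nr4a2 at 3.80 against 1.76 and Nr4a3 at 2.40 against 0.761. The 31-member sum of these dendritic barcodes was 115.7.

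In the B cell gate as ruled, 1 of 38 members was called, Egr3 at 1.14 against 0.499, where 2.83% of genes were called, 2.05% higher and 0.775% lower. That call was lost without suffix 8. Among barcodes with at most 5% mitochondrial UMIs no suffix held enough B cell barcodes for a call, and the log2 ratio over all of them was 0.44, against 1.19. Among B cell barcodes of 1 gate only, suffix 5 with 14 barcodes was the single suffix that could be compared. There 14 members were lower and 5 higher (Jund, Egr3, Klf2, Myc and Dnajb1), where the rule called 38% of genes, 25.4% lower and 12.7% higher.

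Other genes of the same pathways were taken from lists that hold no member. Their counts are read against the shares of all genes called, 17.4% lower and 11.8% higher in CD8 T, 15.4% and 7.64% in NK and 11.9% and 9.96% in Foxp3 T cells. Of 20 tested further immediate early genes, 12 were lower and 3 higher in CD8 T, 12 lower and 1 higher in NK, and 6 lower and 5 higher in Foxp3 T cells. The 3 higher in CD8 T cells are close to the background. Socs3, a feedback inhibitor of cytokine signaling, was lower in each of these gates, at 3.32 in macrophages, 0.708 in CD8 T, 0.821 in NK and 0.856 in Foxp3 T cells. Bhlhe40, a transcription factor of activated lymphocytes, was higher in each, at 1.39 in macrophages, 4.99 in CD8 T, 4.92 in NK and 2.90 in Foxp3 T cells. The higher genes in Foxp3 T cells were Dusp4, Sik1, Pim1, Bhlhe40 and Zfp36l1. Zfp36l1, a relative of Zfp36, was at 9.80 there against 4.64 in macrophages, and was lower in CD8 T (1.76) and NK cells (1.82). Members called in Foxp3 T cells were 10 lower and 1 higher. Of the upstream factors, among them Srf, Creb1 and Hsf1, 0 of 8 tested were called in CD8 T and 0 of 7 in NK cells, while 1 of 8 was higher in Foxp3 T cells, the SRF partner Elk4 at 0.911 against 0.350. Of 15 further heat shock and chaperone genes, 1 was lower and 1 higher in both CD8 T and NK cells. In Foxp3 T cells 2 were higher, the Hsp40 Dnaja1 at 4.69 against 1.85 and the Hsp90 cofactor Chordc1 at 0.801 against 0.342. Of 5 tested targets of Atf4, 2 were lower and 1 higher in CD8 T cells, and 1 lower and 1 higher in both NK and Foxp3 T cells.

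Heat shock members were mostly called neither higher nor lower in the gates. Hsp90ab1, the constitutive Hsp90, was at 11.9 in macrophages, 15.6 in NK and 18.8 in CD8 T cells. Hspa8, the constitutive Hsp70, was at 16.4, 14.0, 13.8, 14.1, 14.1 and 13.8 in macrophages of suffixes 3 to 8 and at 16.4 over all CD8 T cells. Hsp90aa1, the inducible Hsp90, was at 3.65 in macrophages and 5.51 in CD8 T cells. The mitochondrial co-chaperonin Hspe1 was at 2.33 and 3.31. The Hsp40 Dnajb1, which delivers substrates to Hsp70, was at 0.467 and 0.459. The Hsp110 Hsph1, its nucleotide exchange factor, was at 0.222 and 0.408. None of these 6 reached 2-fold in CD8 T cells. In Foxp3 T cells Hsph1 was at 0.773, 3.48-fold above macrophages over all barcodes but not on the same side in each suffix, and 17 of its 28 UMIs came from 3 barcodes of suffix 3. Dnajb1 was also at 0.773 there, a ratio of 1.65. The exception in CD8 T cells was the inducible Hsp70 gene Hspa1a, at 0.182 against 0.709 and 3.90-fold lower, with Hspa1b at 0.229 against 0.430.

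The inducible pair Hspa1a and Hspa1b stood apart in suffix 3. In macrophages Hspa1a was at 2.37 in suffix 3 and at 0.451, 0.313, 0.545, 0.594 and 0.771 in suffixes 4 to 8. Hspa1b was at 1.79 and at 0.223, 0.182, 0.295, 0.340 and 0.439. Suffix 3 lay above all other suffixes for both genes. Against the other suffixes together, Hspa1b was 5.74-fold (5.41 to 6.08) and Hspa1a 4.19-fold (3.99 to 4.39) higher. Of 7644 genes compared in macrophages, 6 (0.0785%) were at least 2-fold higher in suffix 3, with Hspa1b at rank 1 and Hspa1a at rank 3. The others were Slc40a1 (5.01-fold), an iron exporter, Matn4 (3.42), Klk1 (2.62) and Fabp4 (2.10). Tnfsf9, a ligand of the TNF family, followed at rank 7 with 1.99, and Hmox1, the heme-degrading enzyme of the oxidative stress response, at rank 8 with 1.88. Further down the first 25 ranks stood Lyve1 at 1.84, Mgl2 at 1.77, Vcam1 at 1.67, Gas6 at 1.60 and Pf4 at 1.56, macrophage genes named after their values were seen and not from a list. The share of C1q-high macrophages in suffix 3, 37.9%, lay within the 12.3% to 51.6% of the other suffixes. The part of a macrophage state in the suffix 3 levels was not tested. Hspa1a and Hspa1b are near-identical copies, but no 50-base stretch of the last 500 bases of their transcripts was shared, against 58.8% of such stretches over the whole Hspa1a transcript, so reads near the 3′ end can tell them apart.

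The other heat shock members moved in the same direction by less. In macrophages all 8 were highest in suffix 3, where 8.39% of genes were. Suffix 3 over the other suffixes gave 1.47 for Hsph1, 1.43 for Dnajb1, 1.22 for Hsp90aa1, 1.17 for Hspa8, 1.15 for Hsp90ab1 and 1.12 for Hspe1. Of 15 further heat shock and chaperone genes, 2 were highest in suffix 3. Of the immediate early members 4 were highest in suffix 3 (Jun, Myc, Ier3 and Dusp2). Of the tested AP-1 subunits 5 of 6 were highest in suffix 5, where 39.6% of genes were, and 8 of 13 feedback regulators in suffix 6, where 22.7% were. In suffix 7, 0 of 38 members were highest, where 8.71% of genes were. Klf2 was lowest in suffix 3.

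The higher Hspa1a level of suffix 3 was not limited to macrophages. Suffix 3 exceeded the other suffixes 3.59-fold in the neutrophil gate, 3.98-fold in the dendritic gate and 9.60-fold in dendritic barcodes of 1 gate only (31 UMIs against 27). In CD8 T cells it did so 5.23-fold (2.58 to 10.1), on 14 UMIs in 17 barcodes. In NK cells the ratio was 1.81 (1.07 to 2.95), and the highest level was in suffix 8, with 0.670, 0.200, 0.244, 0.0391, 0.0295 and 1.21 from suffix 3 to 8. In the Foxp3 T gate, 3 barcodes of suffix 3 held 11 of 16 Hspa1a UMIs. All 8 heat shock members were highest in suffix 3 in CD8 T cells as well, where 25.1% of genes were, and 4 were in NK cells, where 14.7% of genes were. In the neutrophil gate 7 were, where 11.2% of genes were, and in the dendritic gate 6, where 18.4% were. Those gates share 86.6% and 53.8% of their barcodes with the macrophage gate, so their counts in part repeat it. In dendritic barcodes of 1 gate only 5 were, where 16% of genes were. Within macrophages the Hspa1a ratio was 4.51 and 4.54 in C1q-high and C1q-low cells, and 5.44 and 3.80 in dividing and other cells.

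Within suffix 3 a Hspa1a UMI was found in 53.3% of 589 macrophages, with a median of 1 and up to 79 UMIs in 1 barcode, against 17.3% to 40.1% of macrophages in the other suffixes, each with a median of 0. The highest 10% of barcodes held 59.1% of the 2260 UMIs of suffix 3 and 67.8% to 81.4% of those of the other suffixes. After thinning, 29.3% of suffix 3 macrophages held a Hspa1a UMI, against 6.94% to 15.3% in the other suffixes. The median mitochondrial share was 4.04% in the 171 suffix 3 macrophages with a Hspa1a UMI after thinning and 3.80% in the 412 without. In each of the other suffixes it was lower in macrophages with a Hspa1a UMI, from 2.82% against 3.05% in suffix 6 to 4.14% against 4.19% in suffix 4. Over all macrophages of suffix 3 it was 3.86%, within the 3.01% to 4.18% of the other suffixes. Suffix 3 was also the smallest library. Which tumor and treatment it holds is not known, so library, tumor and treatment cannot be told apart.

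**Figure D4:**
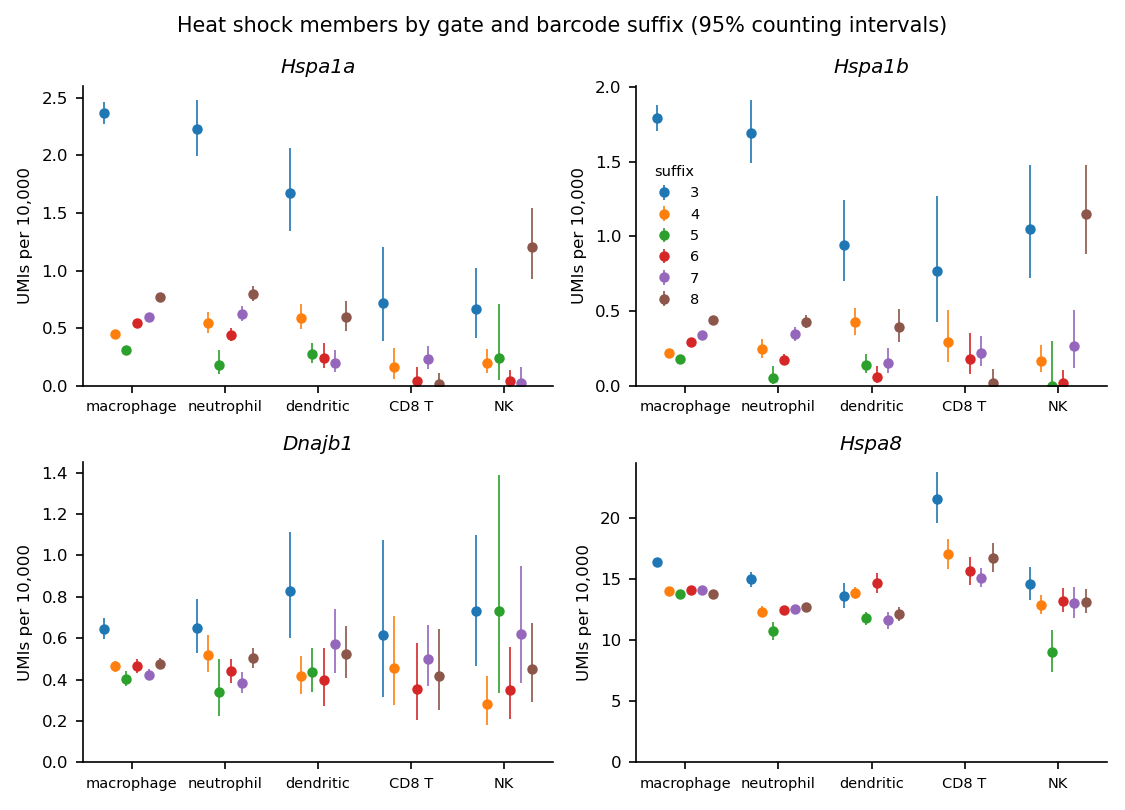
Level (UMIs per 10,000, linear axes from 0) of Hspa1a, Hspa1b, Dnajb1 and Hspa8 by gate, with 1 coloured point per barcode suffix of at least 10 barcodes and bars for the exact 95% Poisson interval of counting. Suffix 3 is highest for Hspa1a in the macrophage (2.37), neutrophil, dendritic and CD8 T gates, whereas in NK cells suffix 8 is highest (1.21).

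Across suffixes, 5 of 38 members differed at least 2-fold between the highest and lowest suffix of macrophages (Egr3, Myc, Gadd45b, Hspa1a and Hspa1b), where 9.55% of genes did. The Fos range of 12.2 to 19.5 and the Zfp36 range of 10.4 to 16.1 were typical of the rest. For the 9 members lower in all 3 lymphoid gates, the highest macrophage suffix was 1.34 to 1.95 times the lowest, less than the ratio of macrophages to each lymphoid gate. These members were called at 2-fold or more, so that order was largely fixed by the call and adds nothing to it. The lymphoid gates, with fewer barcodes, spread more. In NK cells the highest suffix over the lowest exceeded the ratio to macrophages for all 9 members, as with Zfp36 (9.49 against 6.12), and in CD8 T cells it did so for 2, Fos (21.9 against 8.67) and Atf3 (6.99 against 6.78). In Foxp3 T cells it did so for 7, while Atf3 was at 0 in 1 suffix.

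Macrophages themselves differed. C1q is a complement component whose transcripts varied among these macrophages. The 2071 macrophages with at least 80 UMIs per 10,000 of C1qa, C1qb and C1qc were set against 2263 with less than 20. Immediate early transcripts were lower in the C1q-high cells. The 31-member sum was 133.8, 154.1, 118.6, 118.0, 125.9 and 131.4 in C1q-high cells of suffixes 3 to 8 and 234.9, 195.7, 242.7, 221.8, 189.1 and 227.1 in C1q-low cells. Those ranges did not overlap. The heat shock sum was 33.4 in C1q-high and 33.5 in C1q-low cells.

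At 2-fold, 3 of 38 members were lower in C1q-high cells and 1 higher, where the rule called 7.05% of 7573 genes, 4.04% lower and 3.01% higher. Dusp5 was at 1.56 against 4.14, Fosl2 at 1.35 against 3.01 and Tnfaip3 at 2.66 against 5.62, the last lost without suffix 6. Egr3 was the exception, at 0.590 against 0.290, a call lost without suffix 4 or 7. Whatever the size, 27 of 38 members were lower in C1q-high cells in all 6 suffixes, where 21.8% of genes were, and the median log2 ratio was -0.58, against 0.01 over all genes. All 13 feedback regulators were among them, with Nfkbia at 14.5 against 27.5, Dusp1 at 11.5 against 20.3 and Ier3 at 7.36 against 13.4. So were 5 of 6 tested AP-1 subunits, with Junb at 13.9 against 24.3. Of the heat shock members 4 were lower in all suffixes and Hspe1 was higher in all, at 2.61 against 1.89, while Hspa8 was at 14.4 and 14.5. Only 2 of 38 members, Egr3 and Hspe1, were higher in C1q-high cells in all 6 suffixes, where 25% of genes were.

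Markers of recently arrived monocytes and of neutrophils moved with this split. Ly6c2 was at 0.582 in C1q-high and 5.62 in C1q-low cells, Plac8 at 3.86 and 16.3, and S100a8 at 1.64 and 4.72. The share that also passed the neutrophil gate was 12.1% and 12.5%. Median depth was 19652 and 11103 UMIs and the median mitochondrial share 4.40% and 3.102%. Without barcodes of other gates, again 27 of 38 members were lower in all suffixes. The part of depth and of monocytes in the difference was not tested.

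**Figure D5:**
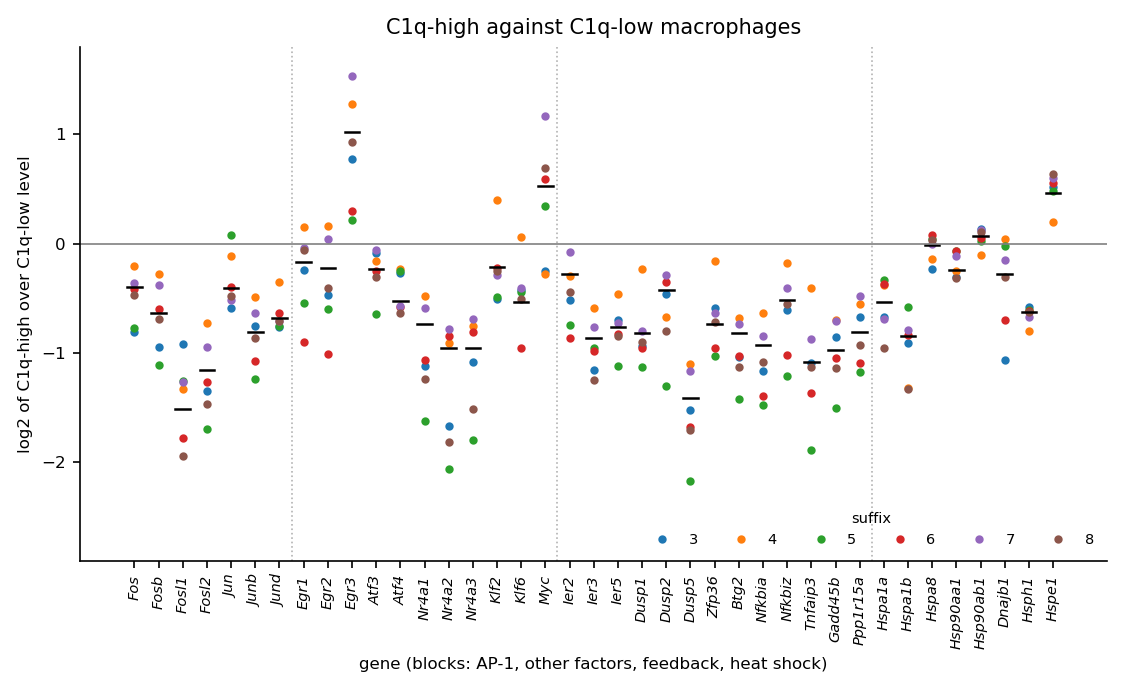
Log2 of the level in C1q-high over that in C1q-low macrophages for each member, with 1 coloured point per barcode suffix and a bar for all barcodes; dotted lines separate the 4 roles, and Fosl1 is drawn although it lies under the level filter. Every point of the feedback regulators lies below 0, with Dusp5 lowest among them at -1.41 over all barcodes, and Egr3 (1.02) and Hspe1 (0.47) lie above 0.

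Dividing macrophages, 1473 barcodes with at least 3 UMIs of Mki67 and Top2a, were set against 3365 barcodes with none. The immediate early members showed a smaller difference of the same kind. Of 8 heat shock members, 5 were higher and 3 lower in dividing cells. Over all genes tested, 4390 of 7669 were higher and 3279 lower, so the heat shock count lay near the background. At 2-fold 0 of 38 members were called, where 5.64% of genes were, 4.82% higher and 0.821% lower. Whatever the size, 22 members were lower in all 6 suffixes, where 18% of genes were, and 3 were higher, where 31.3% were. Dusp1 was at 11.5 in dividing and 18.1 in other macrophages, and Hsp90ab1 at 13.1 and 10.8. The 31-member sum was 143.6 against 190.8, with median depths of 27647 and 12107 UMIs. Plac8 was at 5.88 in dividing and 11.2 in other macrophages, Ly6c2 at 1.22 and 3.40, S100a8 at 2.06 and 3.71 and C1qa at 30.6 and 22.9, and the part of these markers' cells in the difference was not tested.

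Immediate early transcripts were detected together in the same macrophages. Among thinned macrophages with a Fos UMI (5357), Egr1 was found in 69.9%, Dusp1 in 91.5% and Fosb in 54.6%. Among those without (881), the shares were 36.9%, 53.5% and 21.8%. Jund differed less, with 78.9% and 68.2%, and Hspa8 did not separate them, with 95.6% and 94.8%. Hspa1a followed Fos weakly, in 13.2% and 9.42%, while Hspa1b was found in 28.6% of macrophages with Hspa1a and in 4.70% of those without. Ier3 was found in 82.7% of macrophages with Egr1 and 64.5% of those without. C1qa was found in 70.3% with and 75.3% without Fos. All these barcodes were compared at 1 depth, and the shares are a description of cells that share their libraries.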

How the data were processed

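The authors deposited raw UMI counts of CD45+ cells from all tumors as 1 matrix of 20649 genes and 9235 barcodes, without normalization. The submitters' processing notes name Cell Ranger 1.2, Seurat 3.1.5, R 4.0.1 and the build mm10, with no role given. The highest mitochondrial share of any barcode was 9.99%. Barcode suffixes match no sample label, so all columns were used as 1 pooled sample, and the suffixes as libraries of unknown treatment.

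Counts were summed per gate and suffix and divided by summed UMIs (python 3.11.15, numpy 2.4.6), with exact Poisson and Clopper-Pearson intervals at 95% (scipy 1.17.1). CD8 T barcodes had at least 1 CD3 UMI, at least 2 of Cd8a and Cd8b1 and no Foxp3, Foxp3 T barcodes CD3 and Foxp3 UMIs, and NK barcodes Ncr1 and no CD3. Of all barcodes, 6049 passed 1 gate, 1116 several and 2070 none. Doublets were not called, and barcodes of several gates were removed as an alternative. Genes named are the members and the markers or list genes that a result turns on. Members and lists were chosen with earlier results of these data known. The call rule was run on simulated counts of the NK and macrophage gates, with counting error only and changes larger than 2-fold. Recovery of changes near 2-fold, at low levels or in smaller gates was not tested. Figures were drawn with matplotlib 3.10.9. Alternatives were barcodes of 1 gate only, thinning to 3000 UMIs (743 barcodes left out), stricter gates, means over barcodes, at most 5% mitochondrial UMIs, other folds and filters, and leaving out each suffix. Depth was 11492757 to 33902084 UMIs per suffix.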

Additional observations from a re-analysis of the deposited data

Results flagged for a closer look

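Over the 6 suffixes of macrophages, 9 of 39 members had a suffix whose distance to its nearest neighbor was large for the range of all 6 (Dixon's criterion). Chance alone gives about 1 in 20 such cases per gene tested, and members are not independent of each other. Of 7644 genes with a level of at least 0.1, 12.3% met the criterion, 0.275% with suffix 3 highest and 3.13% with suffix 6 highest.

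For 5 heat shock members the suffix that stood apart was suffix 3. Hspa1a was at 2.37 there, with the next suffix at 0.771, and Hspa1b at 1.79, with the next at 0.439. Hspa8 was at 16.4, Dnajb1 at 0.645 and Hsph1 at 0.314, the highest suffix in each case. For 3 feedback regulators it was suffix 6, with Dusp5 at 3.59, Tnfaip3 at 5.77 and Ppp1r15a at 2.64. Suffix 6 held 558 of the 2263 C1q-low macrophages, beside 555 in suffix 8. C1q-low cells made up 63.7% of suffix 6 macrophages, against 20.2% to 39.5% in the other suffixes. These 3 regulators were higher in C1q-low than in C1q-high cells, and the part of the C1q-low share in the difference was not tested. Btg2 was highest in suffix 5, at 7.87.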

How the results depend on the processing

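Of 506 ratios of called members recomputed under the alternatives, 486 kept a 2-fold difference, 20 fell under 2-fold in the same direction and 0 reversed. The counts of called members in CD8 T (17) and Foxp3 T cells (11) stayed within 1.5 times under each alternative that could be run. Foxp3 T cells could not be compared after thinning, and B cells not at 5% mitochondrial UMIs, since no suffix held enough barcodes. Counts in the other gates moved. With barcodes of 1 gate only they went from 0 to 6 in neutrophils, from 1 to 8 in dendritic and from 1 to 19 in B cells, where 8.93%, 17.0% and 38.0% of all genes were called. With stricter gates they went to 6, 11 and 16, where 11.6%, 17.6% and 37.1% of all genes were called. Thinning gave 2 in dendritic cells, 2 in B cells and 7 instead of 4 for C1q-high against C1q-low, beside 7.67%, 8.75% and 6.94% of genes. Means over barcodes gave 2 in dendritic and 5 in B cells, beside 8.37% and 13.2% of genes. At 1.5-fold the counts were 1 in neutrophils, 4 in dendritic, 2 in B and 20 instead of 12 in NK cells, 20 for C1q, 3 instead of 0 for dividing macrophages and 22 instead of 5 for the spread over suffixes. All genes called at 1.5-fold were, in the same order, 1.14%, 11.1%, 8.35%, 34.9%, 17.1%, 12.7% and 31.9%. At 3-fold they were 0 in dendritic cells, 0 in B cells, 0 for C1q and 2 for the spread, beside 1.82%, 1.21%, 2.38% and 2.92% of genes, and the spread was also 2 with a minimum mean level of 0.5, beside 9.07%. Leaving out 1 suffix at a time gave 0 to 2 in dendritic cells, 0 to 2 in B cells, 4 to 8 for C1q, with the highest without suffix 4, and 2 to 5 for the spread, with the lowest without suffix 6. The rule then covers fewer suffixes for every gene, and the share of all genes called is not given for these settings. The leave-one-out counts are therefore not read as results about the members. The suffix 3 ratio of Hspa1a was 4.63 after thinning, 4.44 with stricter gates, 4.56 as a mean of barcodes and 3.92 at 5% mitochondrial UMIs, and that of Hspa1b was 6.61 after thinning, 6.77 as a mean of barcodes and 5.28 at 5% mitochondrial UMIs. Leaving out another suffix gave 3.92 to 4.82 for Hspa1a and 5.25 to 6.73 for Hspa1b. These suffix 3 alternatives were chosen after seeing the data. No paired analysis was possible between the treatments, because barcodes could not be assigned to the numbered tumors; gates were compared within each suffix. Gates with few barcodes limit what depth allows: 55 Foxp3 T barcodes had a median of 3490 UMIs.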
